A study of Mus with 8 samples.

Results

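The matrix metalloproteinases (MMPs), the ADAMTS proteases with their ADAMTS-like relatives, and the tissue inhibitors of metalloproteinases (TIMPs) were followed in uterine RNA from mice at pseudopregnancy day 6. They were chosen by symbol: every row of the count table that starts with Mmp and a digit or with Adamts, and Timp1 to Timp4. This gave 51 of 31269 gene symbols: 23 Mmp, 19 Adamts, 5 Adamtsl and 4 Timp genes. Of these, 43 passed a filter on low counts and were tested, and the other 8 are given by their counts.

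Matrix metalloproteinases are zinc enzymes, made as inactive proforms, that cut collagen, gelatin, laminin and other parts of the extracellular matrix. ADAMTS enzymes are secreted relatives that cut proteoglycans such as versican and aggrecan or trim procollagens, and ADAMTS-like proteins share their matrix-binding modules but lack the protease. TIMPs bind and block these enzymes. In the uterus this system is known for matrix remodelling in the cycle, at implantation, in pregnancy and after birth, and several of its genes respond to progesterone or estrogen.

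The 4 libraries of the first group carry a label for myometrial PGR deficiency, that is, loss of the progesterone receptor in the muscular wall of the uterus, and 4 libraries are controls. Pseudopregnancy, which both groups share, is the hormonal state after a sterile mating, although the labels place the tissue around implantation sites. No allele, Cre driver, strain or age is given in the sources used here, and nothing there says that each library is a separate animal, so the p-values cover only the spread among the libraries. The comparison asks how RNA levels in the uterine tissue differ between the labels.

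Depth was even, with 71377993 to 72364750 counts in the libraries labelled deficient and 70296369 to 71303026 in the controls. Levels are counts per 1000000 counts of a library (CPM) after TMM scaling, which are not corrected for gene length, so they are compared between libraries and never between genes. Pgr itself did not show a loss with the label, at 187, 184, 177 and 159.7 CPM in libraries 1 to 4 labelled deficient against 131, 180.0, 144 and 171 CPM in the controls (log2 difference 0.18 ± 0.11 SE, edgeR adjusted p = 0.338). These counts are of whole tissue, so they cannot show whether Pgr was lost in the muscular wall alone. The groups are therefore named by label. Smooth muscle, epithelial, stromal, endothelial, macrophage and mesothelial markers were present in every library.

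No member passed edgeR's quasi-likelihood test at an adjusted p of 0.05, and neither did any other gene (0% of 17629 tested; smallest adjusted p among members 0.0988, for Adamts14). At an unadjusted p under 0.05 there were 11 of 43 members (25.6%), against 24.8% of all genes tested. Among these 11, the libraries labelled deficient had the higher mean level in 7 and the lower in 4, where the shares over all genes were 13% higher and 11.8% lower. In 6 members (14%) the 4 libraries of one group lay beyond the 4 of the other, against 16.3% of all genes; 3 members lay above and 3 below, with 7.61% and 8.66% of all genes. DESeq2 called 7 members, 6 higher and 1 lower, against 14.2% of the 17579 genes to which it gave an adjusted p, and limma-voom called 0. The members' shares thus stood close to those of all genes. Their median log2 difference was 0.03 against 0.01 over all genes, and its median size without sign 0.29 against 0.20. Both these counts and the shares of all genes moved when 1 library was left out. An unadjusted p under 0.05 was reached by 7 members without control library 1 or control library 3, where the shares of all genes were 18.2% and 20%. Members without overlap numbered 10 without control library 2 or without library 4 labelled deficient, where 23.3% and 27.7% of all genes did not overlap. The 7 members called by DESeq2 became 3 on leaving out control library 1, 2 on leaving out control library 4, and 11 when library 4 labelled deficient was missing, and the shares of all genes called became 7.78%, 5.32% and 22.3%.

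**Figure D1:**
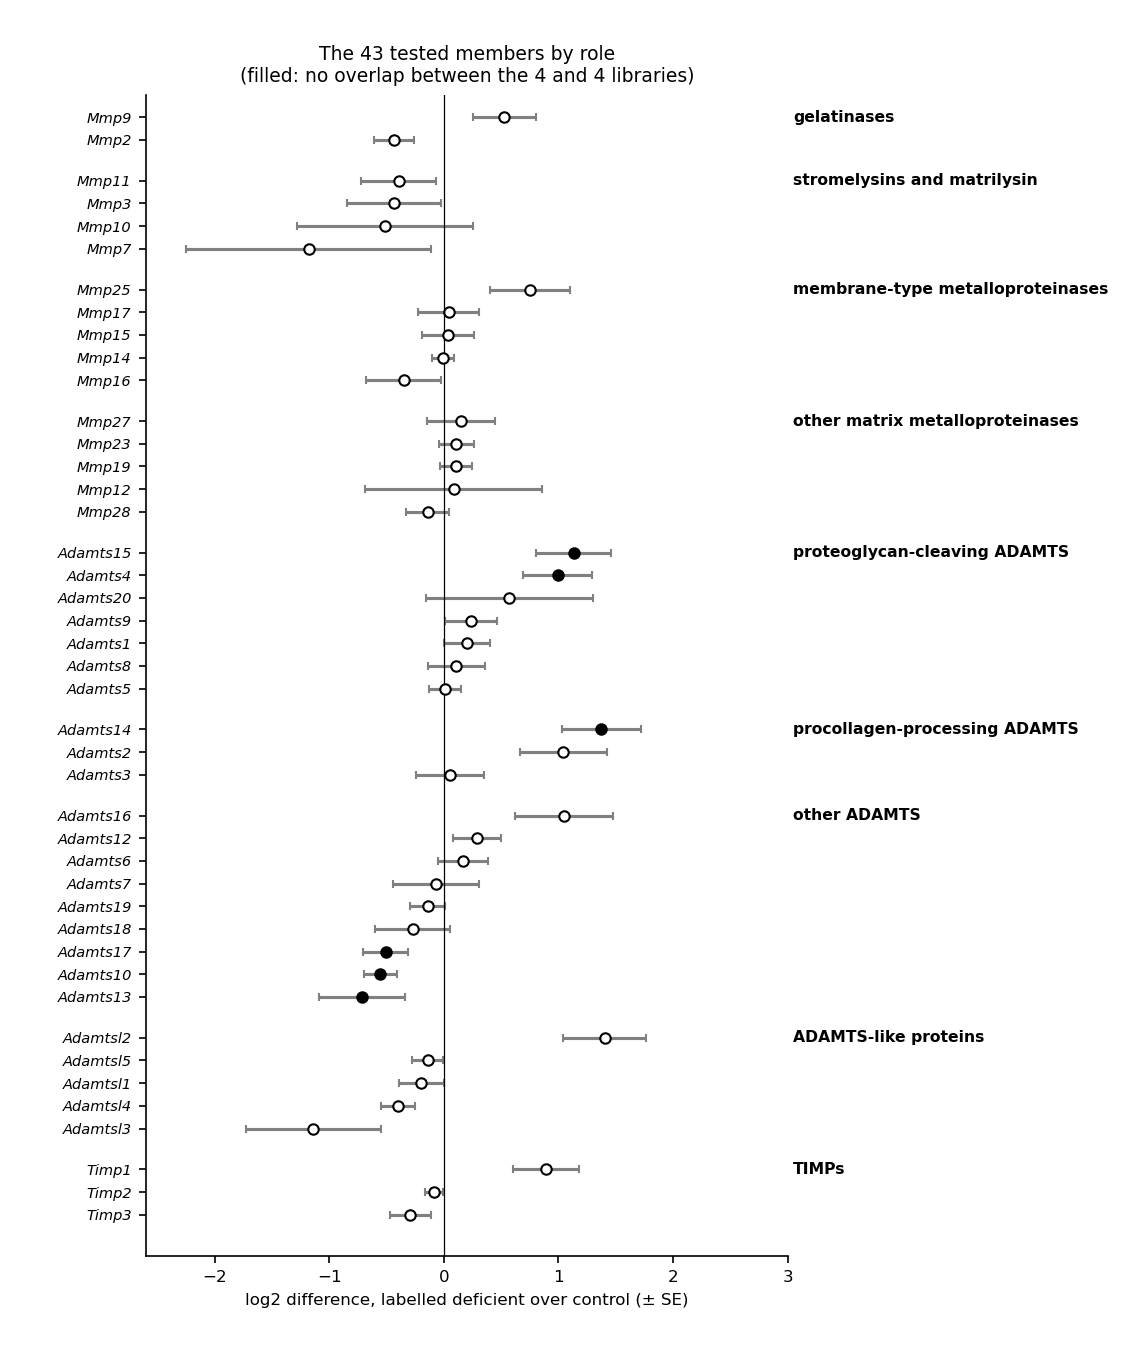
Log2 difference (labelled deficient over control, with its SE) of the 43 tested members, grouped by role; filled points are members whose 4 libraries of one group lie beyond the 4 of the other. The 3 filled points right of zero are Adamts14, Adamts15 and Adamts4, the 3 left of zero are Adamts10, Adamts17 and Adamts13, and every Mmp and Timp point is open.

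All 6 members without overlap were ADAMTS genes, none an Mmp, Adamtsl or Timp gene. Among the 19 Adamts genes 7 had an unadjusted p under 0.05 (5 higher, 2 lower), among the 5 Adamtsl genes 2, among the 16 tested Mmp genes 1 and among the 3 tested Timp genes 1. The shares of all genes to set beside these counts and those of the groups below were 16.3% without overlap and 24.8% at an unadjusted p under 0.05. DESeq2 called 14.2% of all genes. Whether the families differ from each other or from all genes was not tested. Because the libraries are of whole tissue, fewer cells of a type and less RNA per cell cannot be told apart in any of the values below.

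Of the 3 procollagen-processing enzymes 2 were called higher by DESeq2 and 0 by edgeR. These proteases remove the amino-terminal propeptide of fibrillar procollagens. Adamts14 (chromosome 10 from 61197112 to 61273419, coordinates here and below on GRCm38.p6) measured 48.2, 103, 71.4 and 42.6 CPM in libraries 1 to 4 labelled deficient, against 24.5, 39.9, 20.7 and 17.1 CPM in control libraries 1 to 4. Every library labelled deficient lay above every control, library 2 was far the highest, and the nearest pair was library 4 labelled deficient and control library 2. The means were 66.3 ± 27.5 CPM in the libraries labelled deficient and 25.6 ± 10.05 CPM in the controls (SD, n = 4 each), a log2 difference of 1.38 ± 0.35 (SE) or 2.59-fold, with a 95% interval of 1.49 to 4.51; the adjusted p was 0.0988 in edgeR and 0.00247 in DESeq2. Without library 2 labelled deficient the log2 difference was 1.08.

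Adamts2, the best known of the procollagen N-proteinases (chromosome 11 from 50602085 to 50807573), measured 184, 417, 231 and 107 CPM in libraries 1 to 4 labelled deficient, against 87.8, 147, 97.7 and 125 CPM in control libraries 1 to 4. Libraries 1 to 3 labelled deficient were above all controls, whereas library 4 lay below control libraries 2 and 4. The log2 difference was 1.04 ± 0.38 (SE; adjusted p = 0.152 in edgeR and 0.0409 in DESeq2), and 0.61 without library 2 labelled deficient. Adamts3, the third member, ranged over 11.8 to 32.2 CPM in the libraries labelled deficient and 16.1 to 20.9 CPM in the controls, with the highest value also in library 2 labelled deficient (log2 difference 0.05 ± 0.30 SE, edgeR adjusted p = 0.925). Its sign turned to -0.57 without libraries 2 and 3 labelled deficient, and turned also with library totals as the scaling.

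**Figure D2:**
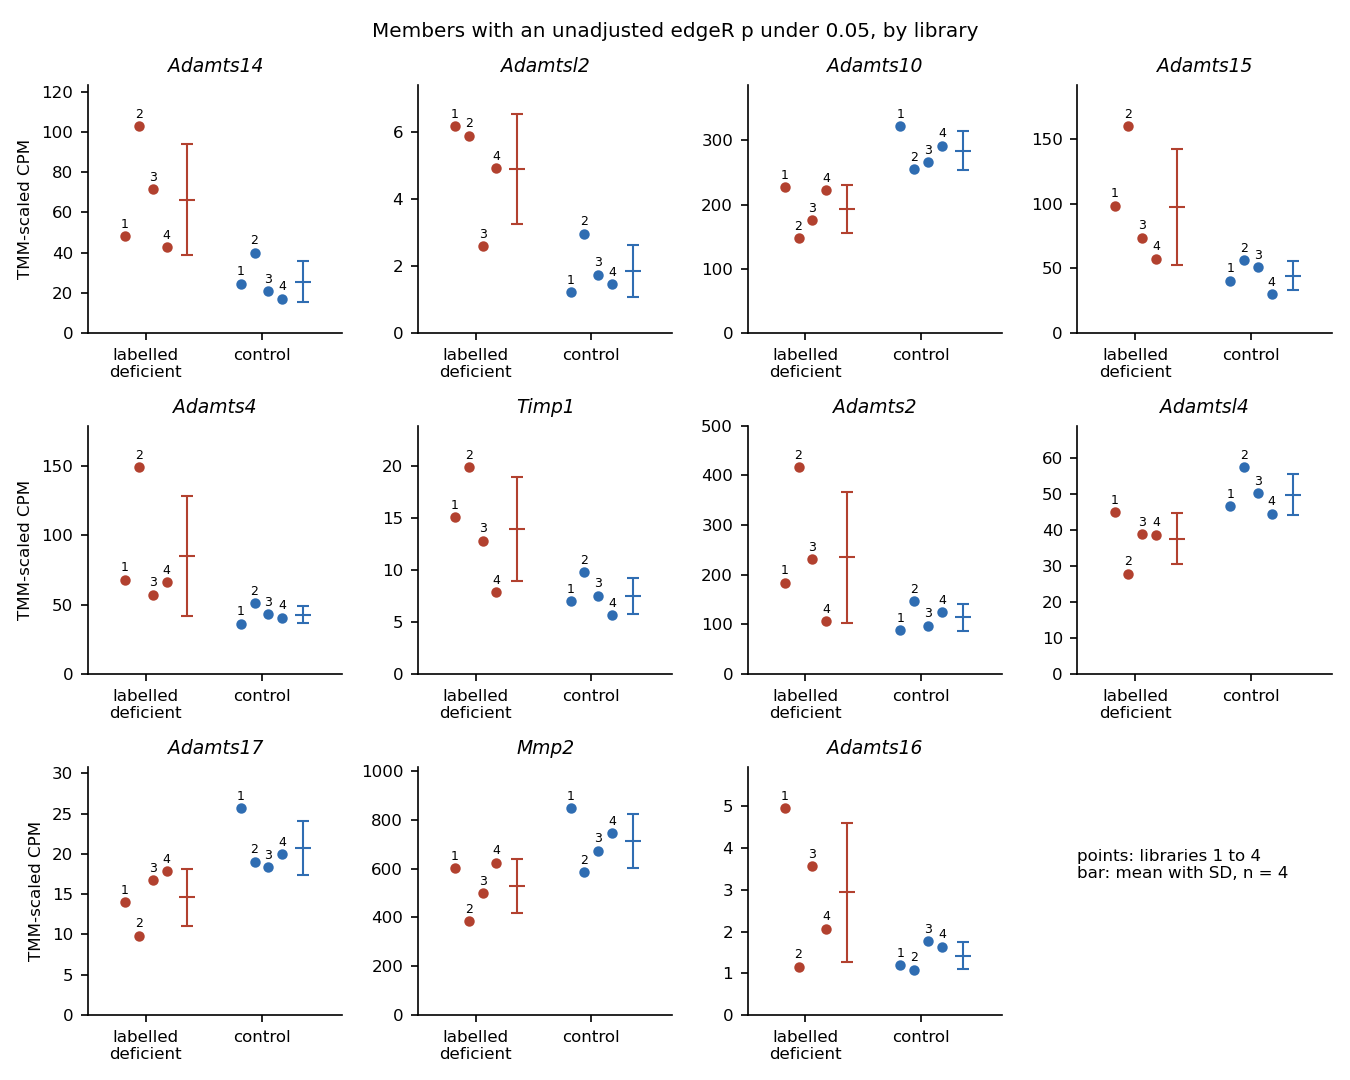
TMM-scaled CPM by library (numbered points) with the mean and SD (n = 4) for the 11 members with an unadjusted edgeR p under 0.05, labelled deficient in red and control in blue; each axis starts at 0. Library 2 labelled deficient is the highest of the 8 for Adamts14, Adamts15, Adamts4, Timp1 and Adamts2, and the lowest for Adamts10, Adamtsl4, Adamts17 and Mmp2.

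Among the 7 proteoglycan-cleaving ADAMTS genes all 7 differences were positive, although Adamts5 became negative with library totals as the scaling, and 2 had an unadjusted p under 0.05. Adamts15, which cuts versican and aggrecan (chromosome 9 from 30899155 to 30922452), measured 98.7, 160.5, 73.8 and 57.5 CPM in libraries 1 to 4 labelled deficient, against 40.5, 56.3, 50.8 and 30.3 CPM in control libraries 1 to 4. The groups did not overlap, though library 4 labelled deficient was almost level with control library 2. Its log2 difference was 1.13 ± 0.33 (SE), a 2.19-fold ratio (95% interval 1.30 to 3.70), with an adjusted p of 0.108 in edgeR and 0.0102 in DESeq2. Adamts4, an aggrecanase (chromosome 1 from 171250129 to 171262267), measured 68.0, 149, 57.2 and 66.1 CPM in libraries 1 to 4 labelled deficient, against 36.4, 51.2, 43.05 and 40.7 CPM in control libraries 1 to 4. Library 2 labelled deficient stood well above the other 3 of its group, which in turn lay above all controls. The log2 difference of Adamts4 was 0.99 ± 0.30 (SE; adjusted p = 0.116 in edgeR and 0.0163 in DESeq2) and 0.58 without that library.

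The other proteoglycan-cleaving genes overlapped between the groups. Adamts1, a versican-cleaving enzyme known as a PGR target in the ovulating mouse ovary, measured 375, 418, 383 and 389 CPM in libraries 1 to 4 labelled deficient, against 224, 479, 351 and 310.2 CPM in control libraries 1 to 4. The libraries labelled deficient were close together, and the controls spread to both sides of them (log2 difference 0.20 ± 0.20 SE, 95% interval 0.835 to 1.58-fold, edgeR adjusted p = 0.555). Adamts5, the other main aggrecanase, ranged over 49.98 to 73.3 CPM in the libraries labelled deficient and 53.1 to 72.9 CPM in the controls (log2 difference 0.01 ± 0.14 SE) and was the nearest to zero of the 7. Adamts9, a versican-cleaving enzyme, had a log2 difference of 0.24 ± 0.22, Adamts8 of 0.11 ± 0.25 and Adamts20 of 0.57 ± 0.73 (SE), with edgeR adjusted p-values of 0.531, 0.807 and 0.641. Adamts8 turned to -0.11 without libraries 2 and 3 labelled deficient.

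The remaining ADAMTS genes went both ways, with 3 of 9 positive and 6 negative. Adamts10, an enzyme tied to fibrillin microfibrils and mutated in human Weill-Marchesani syndrome (chromosome 17 from 33523646 to 33553782), measured 227, 148, 176 and 222 CPM in libraries 1 to 4 labelled deficient, against 322, 255, 266 and 292 CPM in control libraries 1 to 4. All 4 libraries labelled deficient were below all 4 controls, with library 2 the lowest. The log2 difference was -0.55 ± 0.15 (SE), a 0.681-fold ratio (95% interval 0.539 to 0.860; adjusted p = 0.101 in edgeR and 0.0115 in DESeq2). Adamts17, whose human gene is linked to a similar syndrome (chromosome 7 from 66839699 to 67153171), measured 14.0, 9.85, 16.7 and 17.8 CPM in libraries 1 to 4 labelled deficient, against 25.7, 19.0, 18.3 and 19.996 CPM in control libraries 1 to 4. Its groups were also apart, by a narrow margin between library 4 labelled deficient and control library 3 (log2 difference -0.51 ± 0.20 SE; adjusted p = 0.166 in edgeR and 0.0879 in DESeq2).

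Adamts13, the protease that cuts von Willebrand factor, was low throughout, at 0.124, 0.341, 0.355 and 0.356 CPM in libraries 1 to 4 labelled deficient, against 0.703, 0.423, 0.383 and 0.423 CPM in control libraries 1 to 4. The groups did not overlap, but 3 libraries labelled deficient lay just under 3 controls and the rest of the gap came from library 1 of each group (log2 difference -0.71 ± 0.38 SE, edgeR adjusted p = 0.272). Adamts16 measured 4.96, 1.16, 3.56 and 2.07 CPM in libraries 1 to 4 labelled deficient, against 1.20, 1.09, 1.77 and 1.64 CPM in control libraries 1 to 4. Libraries 1, 3 and 4 labelled deficient were above all controls and library 2 was among them (log2 difference 1.05 ± 0.43 SE; adjusted p = 0.182 in edgeR and 0.0954 in DESeq2). Adamts7, which cuts cartilage oligomeric matrix protein, varied more within the libraries labelled deficient than within the controls. It ran from 50.7 CPM in library 2 to 208 CPM in library 1 labelled deficient, and from 111 to 135 CPM in the controls. Its log2 difference was -0.07 ± 0.38 (SE) over all libraries and 0.46 without libraries 2 and 3 labelled deficient. Adamts12, Adamts6, Adamts18 and Adamts19 had log2 differences of 0.29, 0.17, -0.27 and -0.14, with edgeR adjusted p-values from 0.417 to 0.647.

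Among the ADAMTS-like genes Adamtsl2 was called higher by DESeq2 and the other 4 had negative differences. Adamtsl2, a fibrillin-binding protein mutated in human geleophysic dysplasia (chromosome 2 from 27079336 to 27108981), measured 6.18, 5.89, 2.58 and 4.93 CPM in libraries 1 to 4 labelled deficient, against 1.23, 2.96, 1.74 and 1.47 CPM in control libraries 1 to 4. Library 3 labelled deficient lay below control library 2, and the other 3 were above all controls. The log2 difference was 1.40 ± 0.36 (SE), 2.65-fold with a 95% interval of 1.49 to 4.70; the adjusted p was 0.101 in edgeR and 0.00438 in DESeq2. Without libraries 2 and 3 labelled deficient its log2 difference was 1.59. Adamtsl4, another fibrillin-associated protein (chromosome 3 from 95676201 to 95687927), measured 45.0, 27.9, 38.9 and 38.8 CPM in libraries 1 to 4 labelled deficient, against 46.7, 57.6, 50.3 and 44.6 CPM in control libraries 1 to 4. Only library 1 labelled deficient reached the control range (log2 difference -0.40 ± 0.15 SE; adjusted p = 0.153 in edgeR and 0.0832 in DESeq2). Adamtsl3 had a log2 difference of -1.14 ± 0.59 (SE, edgeR adjusted p = 0.262), with its lowest value of 0.504 CPM in library 2 labelled deficient and its highest of 8.40 CPM in control library 4. Adamtsl1 was at -0.20 ± 0.20 and Adamtsl5 at -0.14 ± 0.14 (SE).

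The gelatinases Mmp2 and Mmp9 had differences of opposite sign. Mmp2, gelatinase A (chromosome 8 from 92827290 to 92853421), measured 602, 384, 498 and 624 CPM in libraries 1 to 4 labelled deficient, against 848, 584, 673 and 745 CPM in control libraries 1 to 4. Libraries 1 and 4 labelled deficient were above control library 2, and libraries 2 and 3 were below all controls. The log2 difference was -0.44 ± 0.17 (SE), a 0.740-fold ratio (95% interval 0.562 to 0.973; adjusted p = 0.173 in edgeR and 0.101 in DESeq2), and -0.21 without libraries 2 and 3 labelled deficient. It was the 1 Mmp gene with an unadjusted p under 0.05. Mmp9, gelatinase B, which neutrophils and macrophages can supply (chromosome 2 from 164940326 to 164955850), measured 34.4, 49.0, 22.0 and 43.4 CPM in libraries 1 to 4 labelled deficient, against 28.7, 29.9, 16.4 and 28.3 CPM in control libraries 1 to 4. Library 3 was the lowest of its group on both sides, and the other 3 libraries labelled deficient were above all controls (log2 difference 0.53 ± 0.27 SE, edgeR adjusted p = 0.264).

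Mmp14, the membrane-type enzyme that activates pro-MMP2 on the cell surface together with TIMP2, was almost level between the groups. It measured 385, 490.1, 454 and 432 CPM in libraries 1 to 4 labelled deficient, against 443, 456, 394 and 477 CPM in control libraries 1 to 4. The groups overlapped, and the 95% interval of the ratio, 0.858 to 1.153, held 1 (log2 difference -0.01 ± 0.09 SE, edgeR adjusted p = 0.968); the sign changed when single libraries were left out. Mmp25, a lipid-anchored enzyme known from leukocytes, had a log2 difference of 0.75 ± 0.35 (SE, edgeR adjusted p = 0.220), with 10.4 CPM in library 2 labelled deficient as its highest value. Mmp15, Mmp16 and Mmp17 were at 0.03, -0.35 and 0.04, with edgeR adjusted p-values from 0.519 to 0.941; all 3 signs turned under some alternatives.

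All 4 stromelysins and matrilysin had negative differences, none with an unadjusted p under 0.05, and the spread within the groups was wide. Mmp7, matrilysin, an enzyme of uterine epithelium (chromosome 9 from 7692090 to 7699585), measured 0.912, 46.7, 56.2 and 5.34 CPM in libraries 1 to 4 labelled deficient, against 46.6, 36.6, 27.6 and 137 CPM in control libraries 1 to 4. The raw counts were 66, 3146, 3963 and 390 in the libraries labelled deficient and 3381, 2597, 2017 and 9687 in the control libraries. Libraries 1 and 4 labelled deficient were thus below all controls, while libraries 2 and 3 lay inside the control range. The log2 difference was -1.18 ± 1.07 (SE; 95% interval 0.0804 to 2.42-fold, edgeR adjusted p = 0.510) and -4.30 without libraries 2 and 3, where the edgeR adjusted p was 0.145. On leaving out 1 library it lay between -1.82, without library 3 labelled deficient, and -0.45, without control library 4.

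Mmp11, stromelysin 3, made by stromal cells (chromosome 10 from 75923221 to 75932502), was likewise lowest in libraries 1 and 4 labelled deficient. It measured 43.2, 105, 87.7 and 60.5 CPM in libraries 1 to 4 labelled deficient, against 149, 66.7, 77.2 and 97.0 CPM in control libraries 1 to 4. Both lay below all controls, while libraries 2 and 3 lay among them (log2 difference -0.40 ± 0.33 SE, edgeR adjusted p = 0.469; -0.91 without libraries 2 and 3). Mmp3, stromelysin 1, had a log2 difference of -0.44 ± 0.41 and Mmp10, stromelysin 2, of -0.51 ± 0.77 (SE), with edgeR adjusted p-values of 0.523 and 0.696. Mmp10 was low, at 0.104 to 0.724 CPM in the libraries labelled deficient and 0.110 to 0.776 CPM in the controls.

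**Figure D3:**
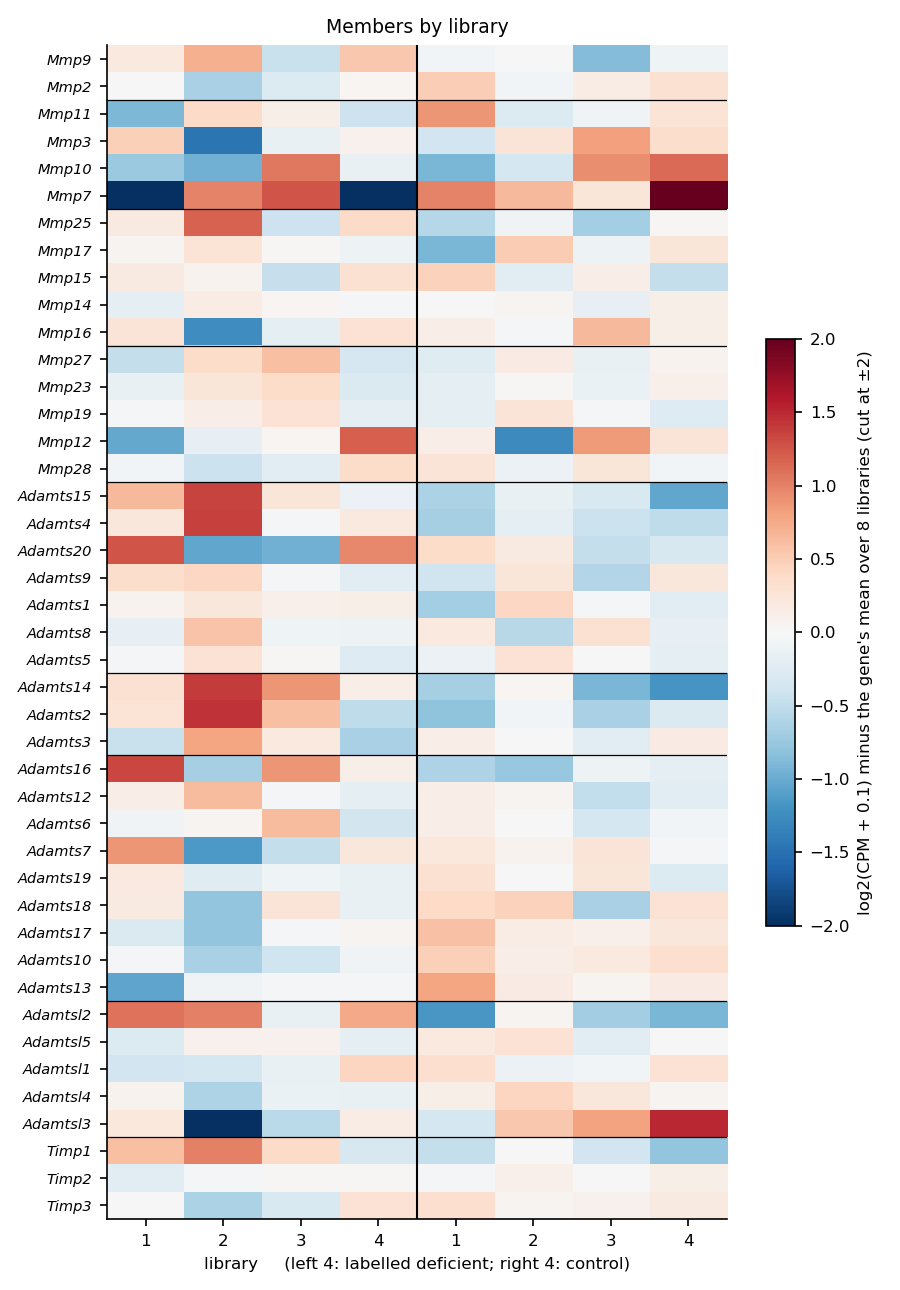
Level of each tested member by library, as log2(CPM + 0.1) minus the gene's mean over the 8 libraries, labelled deficient in the left 4 columns and control in the right 4, with colours cut at ±2. Library 2 labelled deficient is the highest of the 8 in 13 rows and the lowest in 13, and the Mmp7 row is at its lowest in library 1 labelled deficient.

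None of the other 5 tested matrix metalloproteinases had an unadjusted p under 0.05. Mmp12, the macrophage elastase, was at 0.0691 to 0.684 CPM in the libraries labelled deficient and 0.0423 to 0.520 CPM in the controls (log2 difference 0.08 ± 0.77 SE), while the summed macrophage markers did not overlap between the groups, as given below. Mmp19, Mmp23, Mmp27 and the epilysin gene Mmp28 had log2 differences of 0.10, 0.11, 0.15 and -0.14, with edgeR adjusted p-values from 0.658 to 0.774. The signs of these 4 turned without libraries 2 and 3 labelled deficient. The spans of Mmp19, Mmp23 and Mmp28 overlap those of other protein-coding genes in the table, and the strand setting of the counting is not given, so some of their reads cannot be assigned with certainty.

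Of the 8 members that did not pass the filter, 4 were the collagenases. Mmp13 had 3 to 10 counts per library labelled deficient and 6 to 8 per control library. Mmp8, the neutrophil collagenase, had at most 5 counts, Mmp1a at most 2 and Mmp1b at most 1 in any library. The enamel protease Mmp20 had at most 4 counts. Mmp21 had 5, 1, 1 and 0 counts in libraries 1 to 4 labelled deficient and 0 in every control. Mmp24 had 0 to 10 counts per library labelled deficient and 1 to 14 per control library, and Timp4 had 2 to 20 per library labelled deficient and 7 to 14 per control library. At these counts a difference was not detectable at this depth. The spans of Mmp24 and Timp4 also overlap those of BC029722 and Syn2, which had up to 1566 and 7537 counts, so with the strand setting unknown their few reads are uncertain.

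Of the 3 tested inhibitors, Timp1 was called higher by DESeq2 and Timp2 and Timp3 had negative differences. Timp1, a secreted inhibitor that can be induced in inflammation (chromosome X from 20870166 to 20874737), measured 15.1, 19.9, 12.8 and 7.89 CPM in libraries 1 to 4 labelled deficient, against 7.04, 9.79, 7.56 and 5.65 CPM in control libraries 1 to 4. Libraries 1 to 3 labelled deficient were above all controls, and library 4 lay below control library 2. The means were 13.9 ± 5.002 CPM in the libraries labelled deficient and 7.51 ± 1.72 CPM in the controls (SD, n = 4 each), a log2 difference of 0.89 ± 0.29 (SE) or 1.86-fold (95% interval 1.18 to 2.92), with an adjusted p of 0.124 in edgeR and 0.0257 in DESeq2. Timp2, which both blocks MMP2 and takes part in its activation (chromosome 11 from 118301061 to 118355411), measured 539, 613, 632 and 633 CPM in libraries 1 to 4 labelled deficient, against 606, 669, 619 and 675 CPM in control libraries 1 to 4. The groups overlapped, with library 1 labelled deficient below all controls (log2 difference -0.09 ± 0.08 SE, 95% interval 0.834 to 1.06-fold, edgeR adjusted p = 0.487). Timp3, the matrix-bound inhibitor that also blocks ADAMTS4 and ADAMTS5 (chromosome 10 from 86300412 to 86349505), measured 222, 144, 181 and 272 CPM in libraries 1 to 4 labelled deficient, against 280.5, 231, 237 and 254 CPM in control libraries 1 to 4. Libraries 1, 2 and 3 labelled deficient were below all controls, and library 4 was within their range (log2 difference -0.29 ± 0.18 SE, edgeR adjusted p = 0.337; -0.02 without libraries 2 and 3). The spans of Timp1 and Timp3 overlap those of Syn1 and Syn3, which had at most 110 and 830 counts in any library.

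Library 2 labelled deficient held the highest value of 13 of the 43 tested members and the lowest of another 13, against at most 8 highest and 8 lowest in any other library. Without libraries 2 and 3 labelled deficient, edgeR again called 0 members, 12 of 44 tested had an unadjusted p under 0.05 (8 higher, 4 lower), against 18.4% of all genes, and DESeq2 called 6, against 8.44%. These 6 were Adamtsl2 and Adamts4, called before, with Adamts16, Adamts3, Mmp7 and Mmp11, which were not. Their log2 differences without the pair were 1.31 for Adamts16, -0.57 for Adamts3, -4.30 for Mmp7 and -0.91 for Mmp11. The pair left out held the values inside the control range for Mmp7 and Mmp11, and those above all controls for Adamts3. Leaving it out was thus bound to lower these differences. For Adamts16 the pair held the only value of its group inside the control range, 1.16 CPM in library 2, and the difference of Adamts16 rose. The new calls for Adamts16, Adamts3, Mmp7 and Mmp11 are therefore no independent support. The 5 no longer called had 0.83 for Adamts14, 0.82 for Adamts15, 0.62 for Timp1, 0.35 for Adamts2 and -0.33 for Adamts10. In the same 6 libraries 15 of 44 members did not overlap between groups, against 29.8% of all genes.

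Of the 7 calls of DESeq2, 5 were lost on leaving out some single library. Adamts14 and Adamtsl2 were called in all 8 fits without 1 library. Adamts15 was lost without control library 4, and Adamts4 without control library 1 or 4. Adamts10 was lost without control library 1 or 4 or library 3 labelled deficient. Adamts2 was kept in 3 of the 8 fits, in which control library 2 or else library 1 or 4 labelled deficient was missing, and Timp1 in 2, in which either control library 2 or library 4 labelled deficient was missing. Another 8 members were called in 1 of these fits each. They were Mmp2, Timp3, Adamts17 and Adamtsl1 without library 4 labelled deficient, Mmp9 and Mmp25 without library 3, Adamts16 without library 2 and Adamtsl4 without library 1. The share of all genes called ran from 5.32% to 22.3% over these fits, lowest without control library 4.

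**Figure D4:**
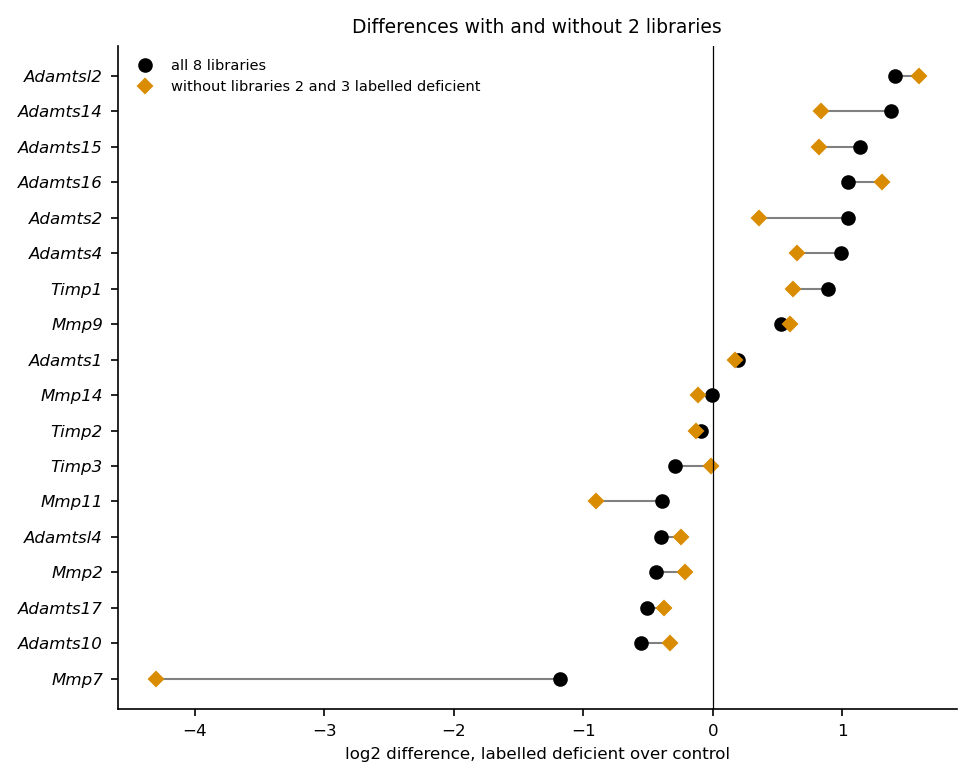
Log2 difference (labelled deficient over control) of 18 members with all 8 libraries (black circles) and without libraries 2 and 3 labelled deficient (orange diamonds). Adamtsl2 and Adamts16 lie further from zero without the 2 libraries, Adamts14, Adamts15, Adamts4 and Adamts2 lie closer to it, and Mmp7 moves to -4.30.

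Markers of several cell types moved with the groups or with single libraries. Summed epithelial markers were 949, 2277, 1644 and 1026 CPM in libraries 1 to 4 labelled deficient, against 1125, 1014, 1082 and 919 CPM in control libraries 1 to 4, so libraries 2 and 3 labelled deficient stood above the rest. Summed macrophage markers were 642 to 909.8 CPM in the libraries labelled deficient and 470.0 to 622 CPM in the controls and did not overlap, and 5 of 6 markers had an unadjusted p under 0.05, all higher. Granulocyte markers were 54.2 to 90.0 CPM in the libraries labelled deficient and 46.9 to 75.9 CPM in the controls. Smooth muscle markers were 3871 to 4499 CPM in the libraries labelled deficient and 3983 to 5882 CPM in the controls, with 6 of 6 negative differences. Endothelial markers ranged over 616 to 1126 CPM in the libraries labelled deficient and 901 to 1096 CPM in the controls, with the lowest sum in library 2. Stromal markers were 4519 to 5649 CPM in the libraries labelled deficient and 3616 to 4359.8 CPM in the controls and did not overlap, yet 2 of 6 differences were positive, with Col1a1 at 0.67 ± 0.21 and Lum at 0.18 ± 0.08 (SE). Mesothelial markers were 276 to 682 CPM in the libraries labelled deficient and 427 to 484 CPM in the controls, with 5 of 6 negative differences. This sum includes the epithelial marker Krt19, at 80.6 to 534 CPM in the libraries labelled deficient and 79.9 to 177 CPM in the controls. It also includes Wt1, at 103 to 191 CPM in the libraries labelled deficient and 254 to 271 CPM in the controls. The remaining markers of the list were each at no more than 47.2 CPM, so the sum mainly follows Krt19 and Wt1. Upk1b and Wt1 of this list did not overlap between the groups, with log2 differences of -0.68 ± 0.15 and -0.76 ± 0.18 (SE). Their DESeq2 adjusted p-values were 0.000622 and 0.00273. Upk3b, Msln and Lrrn4 of the same list overlapped, at -0.42 ± 0.25, -0.52 ± 0.38 and -0.16 ± 0.30 (SE). The sum of the ovary, oviduct and trophoblast list was 44.5 to 304 CPM in the libraries labelled deficient and 59.9 to 104 CPM in the controls. Its highest sum was in library 1 labelled deficient, where the oviduct gene Ovgp1 measured 269.9 CPM. Inha of this list was lower without overlap, at 10.9 to 13.1 CPM in the libraries labelled deficient and 14.5 to 19.1 CPM in the controls (log2 difference -0.49 ± 0.13 SE, DESeq2 adjusted p = 0.0112). Star overlapped, at -0.13 ± 0.22 (SE), as did Ovgp1, at 1.29 ± 0.68 (SE). No marker was at 0 in all libraries, while Prl3d1, Prl2c2 and Cyp19a1 had at most 2 counts in any. The part of these cell types in the differences of the metalloproteinase genes was not tested.

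Of the other genes of matrix turnover, grouped in 5 lists, 0 passed the adjusted threshold in edgeR. The shares of all genes to set beside the counts below are 24.8% at an unadjusted p under 0.05 and 14.2% called by DESeq2. Among 19 tested proteoglycan and matrix substrates 9 had an unadjusted p under 0.05, all higher, and DESeq2 called 7, with a median log2 difference of 0.37 against 0.01 over all genes. Col1a1, Dcn and Lum of this list are also stromal markers. Vcan, the versican substrate of several ADAMTS enzymes, named after its values were seen, measured 113, 111, 45.9 and 62.2 CPM in libraries 1 to 4 labelled deficient, against 42.3, 43.5, 52.7 and 28.1 CPM in control libraries 1 to 4 (log2 difference 1.00 ± 0.32 SE; adjusted p = 0.123 in edgeR and 0.0211 in DESeq2). Libraries 1, 2 and 4 labelled deficient were above all controls and library 3 was not. Acan, aggrecan, was barely detected (log2 difference 2.98 ± 0.66, with at most 1.05 CPM), Fbn1, fibrillin 1, was at 0.62 ± 0.18 and Col4a2, a basement membrane collagen, at 0.38 ± 0.12 (SE).

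Among 10 tested ADAM and tolloid proteases 5 had an unadjusted p under 0.05, 3 higher and 2 lower, with 2 calls by DESeq2. Adam12, a sheddase of stromal and muscle cells, did not overlap between the groups, at 101 to 176 CPM in the libraries labelled deficient and 25.3 to 78.9 CPM in the controls (log2 difference 1.26 ± 0.34 SE; adjusted p = 0.104 in edgeR and 0.00548 in DESeq2). Adam9 was at 0.61 ± 0.23 and Bmp1, the procollagen C-proteinase, at -0.20 ± 0.08 (SE). The second call, Tll1, a tolloid-like relative of Bmp1 named after its values were seen, was at 3.41 to 44.6 CPM in the libraries labelled deficient and 56.5 to 93.2 CPM in the controls, which did not overlap (log2 difference -1.60 ± 0.62 SE; adjusted p = 0.168 in edgeR and 0.0428 in DESeq2). Of 13 tested regulators other than TIMPs 5 had an unadjusted p under 0.05, 4 higher and 1 lower, with 3 calls by DESeq2. A2m, the broad protease trap alpha-2-macroglobulin, was at 2.58 ± 0.78 (SE), with 90.2, 641, 237 and 109 CPM in libraries 1 to 4 labelled deficient against 20.3, 103, 23.4 and 33.8 CPM in the controls, so that control library 2 lay above library 1 labelled deficient. The proteoglycans Spock3 and Spock1 were at 4.23 ± 1.20 and 2.33 ± 0.88, both at their highest in library 2 labelled deficient. Without that library the log2 differences were 1.69 for A2m, 2.35 for Spock3 and 1.12 for Spock1, and without control library 2 that of A2m was 3.38. Spock3 and Spock1 were barely detected in the controls, at no more than 0.193 and 0.578 CPM. The 1 lower gene was their relative Spock2, named after its values were seen. It was at 115 to 379 CPM in the libraries labelled deficient and 429 to 509 CPM in the controls, without overlap (log2 difference -0.82 ± 0.31 SE, edgeR adjusted p = 0.164).

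In the plasminogen and proprotein convertase list 1 of 11 tested genes had an unadjusted p under 0.05 and was also the 1 called by DESeq2. This was Serpine2, an inhibitor of plasminogen activators and thrombin, at 0.42 ± 0.13 (SE). Plau, the urokinase plasminogen activator, reached 166 CPM in library 2 labelled deficient and lay between 15.7 and 26.8 CPM in the other 7 libraries, and its log2 difference of 1.62 became -0.08 without libraries 2 and 3. Furin, a convertase that activates membrane-type MMPs, was at 0.18 ± 0.09 (SE). Among 8 lysosomal and hyaluronan-degrading enzymes 2 (25%) had an unadjusted p under 0.05, a share like that of all genes, and both were called by DESeq2. They were Cemip, a hyaluronan-degrading protein, at -1.54 ± 0.26 with 3.97 to 6.21 CPM in the libraries labelled deficient and 10.9 to 22.3 CPM in the controls, and Ctss, cathepsin S of antigen-presenting cells, at 0.60 ± 0.20 (SE). Hyal2 was at 0.17 ± 0.09.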

How the data were processed

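Read counts per gene were deposited by the authors as 1 table of whole numbers for 31269 symbols in 8 libraries. Per the submitters' processing notes, HISAT2 2.2.1, HTSeq 0.10.0 and the build mm10 were used, with no settings given, strand included. Columns were matched to samples by the library name in the titles. Coordinates are from RefSeq genes on GRCm38.p6, where all 51 members were found, and 2 of 113 genes of other lists were found by an older symbol. Sequences were not used here.

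The whole table was filtered with filterByExpr, leaving 17629 genes, scaled with TMM, and tested with edgeR 4.0.16 in R 4.3.3 (glmQLFit and glmQLFTest, group as the only term) with Benjamini-Hochberg adjustment at 0.05. The SE came from the log2 difference and its F value. DESeq2 1.42.0, limma-voom (limma 3.58.1), other scalings and filters, a replicate block and leaving out libraries were alternatives, and DESeq2 without single libraries was added after seeing the data. The fits were also run on simulated counts with known differences. That check of the code cannot decide between edgeR and DESeq2 in these data.

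Members and lists were chosen with earlier results of these data known. Named in full were 9 chosen members and all with an unadjusted p under 0.05; from other lists, the 3 with the smallest p. No 2 libraries were alike within counting noise: the least chi-square between a pair, per degree of freedom, was 46.5.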

Additional observations from a re-analysis of the deposited data

Results flagged for a closer look

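In 5 of the 86 groups of 4 libraries examined (43 members in each group), 1 library lay far from the other 3 by Dixon's 95% criterion for 4 values; about 1 in 20 groups would do so by chance. Library 2 labelled deficient was such a library for Adamts4, at 149 CPM where the other 3 of its group had 57.2 to 68.0 CPM. It was also one for Adamts8, at 8.75 CPM where the others had 5.24 to 5.55 CPM. For Adamts13, library 1 labelled deficient was low at 0.124 CPM (others 0.341 to 0.356 CPM), and control library 1 was high at 0.703 CPM (others 0.383 to 0.423 CPM). For Mmp9, control library 3 was low at 16.4 CPM, where the other controls had 28.3 to 29.9 CPM.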

How the results depend on the processing

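No member was called by edgeR under any other scaling or filter, with the replicate block, with limma-voom or on leaving out libraries, whereas DESeq2 called 7. Members with an unadjusted p under 0.05 numbered 7 to 13 on leaving out 1 library (16.2% to 30.7% of all genes), members without overlap 7 to 10 (17.7% to 27.7%), and DESeq2 calls 2 to 11 (5.32% to 22.3%). Without libraries 2 and 3 labelled deficient, 15 members did not overlap, against 29.8% of all genes, and DESeq2 called 6. The other scalings and a filter of 1 CPM in 4 libraries gave 11 members with an unadjusted p under 0.05, against 23.9% to 25.8% of all genes. With no filter there were 12 of 51 members, against 19.4% of all genes. Members without overlap numbered 5 or 6 in these fits, against 12.4% to 17.3% of all genes. With the replicate block 11 had an unadjusted p under 0.05, against 24.6% of all genes. The shared numbers do not show a pairing: deviations of same-numbered libraries correlated at 0.20, 0.24, -0.012 and -0.078, and 3 of 8 libraries correlated best with their own number.

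The sign held in every alternative for 29 of the 43 tested members, among them all 11 with an unadjusted p under 0.05, and turned in at least 1 for the other 14. The cause was not tested. Without libraries 2 and 3 labelled deficient the members' log2 differences that turned were Mmp16 0.037, Adamts6 -0.15, Mmp28 0.085, Mmp19 -0.058, Mmp23 -0.18, Mmp27 -0.41, Adamts8 -0.11, Adamts7 0.46, Adamts3 -0.57, Mmp17 -0.045 and Adamts5 -0.15. Plau, which is no member, also turned there, to -0.080. Library totals as the scaling gave Adamts3 -0.0061, Mmp15 -0.0097 and Adamts5 -0.036. For Adamts3, limma-voom gave -0.065 and the replicate block -0.052. On leaving out 1 library the log2 differences ran as follows: Adamts3 -0.28 to 0.23, Adamts5 -0.090 to 0.11, Adamts6 -0.066 to 0.30, Adamts7 -0.49 to 0.19, Adamts8 -0.096 to 0.22, Mmp12 -0.69 to 0.53, Mmp14 -0.068 to 0.052, Mmp15 -0.11 to 0.21, Mmp17 -0.18 to 0.25, Mmp23 -0.014 to 0.21 and Mmp27 -0.082 to 0.31. Depth limits what can be said of the 8 members below the filter and of Mmp10, Mmp12, Adamts13 and Adamts20, all under 1 CPM in every library.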

Other observations

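The genes lie on 18 chromosomes, and 10 Mmp genes form a cluster on chromosome 9 between 7272514 and 7699585 (GRCm38.p6), a span of 427 kb in the order Mmp13, Mmp12, Mmp1b, Mmp3, Mmp1a, Mmp10, Mmp8, Mmp27, Mmp20 and Mmp7. Only 5 of these 10 passed the filter, and none had an unadjusted p under 0.05. Their log2 differences of labelled deficient over control ran from -1.18 for Mmp7, at the end of the cluster, to 0.15 for Mmp27. Adamts15 and Adamts8 lie 20.1 kb apart on chromosome 9 with no RefSeq gene between them, and their log2 differences were 1.13 ± 0.33 and 0.11 ± 0.25 (SE). Adamts1 and Adamts5 lie 55.04 kb apart on chromosome 16, with differences of 0.20 ± 0.20 and 0.01 ± 0.14 (SE). Whether neighbours differ from each other in their response was not tested.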
